A study of Mus musculus with 15 samples.

Results

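How mouse MC3T3 cells had responded by day 3 to the bone morphogenetic protein BMP-2 given with ascorbic acid was measured on 6 of the 15 arrays of the study. Treated cultures (GP/AA/BMP-2, 3 arrays) were kept for 3 days with both agents, AA standing for ascorbic acid, on top of beta-glycerol phosphate (GP). They were set against cultures kept for 3 days with GP alone (GP, 3 arrays). The arrays were taken by their titles, and each treated array was paired with the GP array of the same preparation number, 1 to 3. All 12422 probe sets other than the 66 controls entered, of 12488 on the array. The remaining 9 arrays held GP/AA/BMP-2 cultures at day 1, GP cultures at day 1 and untreated growth medium at day 0, with 3 arrays each. They served to estimate the spread between arrays and, for day 1, as a comparison. No culture received AA or BMP-2 by itself, and the effects of these agents cannot be told apart. The GP cultures received the same phosphate source as the treated cultures, and the cells were clone 1b in every group, so the line stands for a single clone. Nothing in the labels said whether the preparations were separate cultures, and the spread that the p-values rest on may be technical.

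MC3T3 is a cell line from newborn mouse skull that behaves as an osteoblast precursor. BMP-2 binds paired serine/threonine kinase receptors, which phosphorylate Smad1 and its relatives. These enter the nucleus with Smad4 and switch on early targets such as the Id genes and the inhibitory Smads, and later the transcription factors and enzymes of the osteoblast. Ascorbic acid is the cofactor of the prolyl and lysyl hydroxylases that mature collagen in the endoplasmic reticulum. It also serves other prolyl hydroxylases, which mark hypoxia-inducible factor for destruction. Beta-glycerol phosphate releases phosphate for mineral when alkaline phosphatase cleaves it.

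Each probe set had a deposited intensity on a linear scale, a measure of the brightness of the probes for a transcript, and every array had been scaled to a similar trimmed mean. Genes typical of mesenchymal and bone matrix cells gave strong signals on all 15 arrays, with Col1a1 at 6727 to 11862 intensity units and Sparc at 2156 to 3771. The Vim probe set was an exception among the markers examined, at 5.0 to 37.8 units. Of the markers of other cell types with a probe set, 3 of 13 endothelial, 3 of 14 epithelial, 8 of 15 neural and glial, 6 of 20 macrophage and osteoclast, 6 of 17 chondrocyte and 10 of 18 adipocyte genes passed the signal filter described next. The adipocyte genes Adipoq and Pparg stayed at or under 17.9 and 1.8 units on the 6 day 3 arrays. The endothelial Cdh5 stayed at or under 7.4 units. All 6 Pparg values lay under the level to which low values were raised, given below, so this probe set says little. Other listed genes were brighter on these arrays. The adipocyte genes Cebpa, Lep and Plin2 had 155.8 to 284.0, 129.7 to 296.3 and 276.2 to 516.3 units. The endothelial Eng had 121.4 to 225.2, the macrophage Cd14 299.1 to 619.3 and the epithelial Cdh1 71.0 to 192.5 units. RNA quality was read from the signal of actin probes at the 3' end over those at the 5' end, which was 2.11 on the GP array of preparation 3 at day 3 and 1.00 to 1.34 on the remaining arrays. Its values enter every result below.

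Differences were fitted with limma on log2 intensities of all 15 arrays, with the preparation number as a block, after values under 2.8 were raised to 2.8 and probe sets averaging under 24.8 units were left out. Of the 7502 probe sets tested, 1053 (14.0%) passed a Benjamini-Hochberg adjusted p of 0.05, with 524 higher (6.98%) and 529 lower (7.05%) in treated than in GP cultures. Counted as genes, with the brightest probe set standing for each, 862 of 5680 (15.2%) passed, 426 higher (7.50%) and 436 lower (7.68%). The median log2 fold change over all 5680 genes was 0.001. Changes of at least 2-fold were seen in 255 of the called genes, 110 higher and 145 lower. In 646 of the 862 called genes all 3 treated values lay outside the range of the 3 GP values, and over all tested genes the groups did not overlap in 1203 (21.2%). Without the preparation block 269 genes passed (4.74%), and all 269 were among the 862. Preparation 3 differed from the others. The first principal component of the 6 day 3 arrays held 42.2% of the variance. Both preparation 3 arrays, at -42.2 for treated and -27.4 for GP, lay below the other 4, at -0.7 to 35.7. Within every preparation the treated array also lay below the GP array on this component. The second component held 28.2% and set the treated arrays, at -33.1 to -7.7, apart from the GP arrays, at 12.3 to 35.5.

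**Figure D1:**
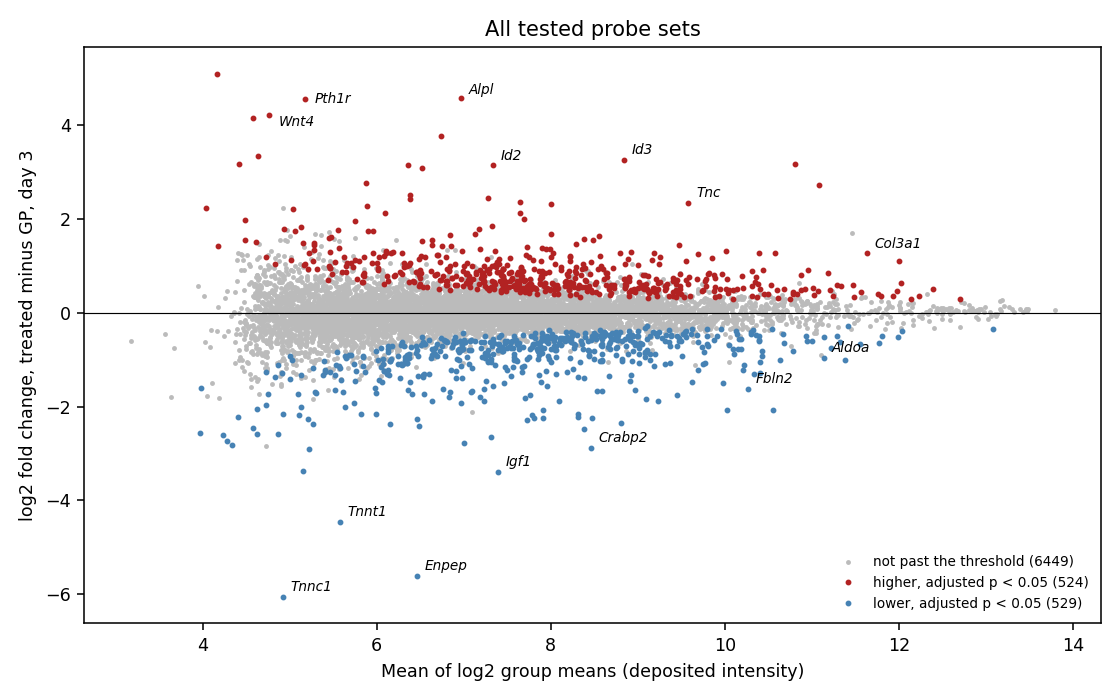
Log2 fold change of treated over GP cultures at day 3 (vertical axis) against the mean of the log2 group means (horizontal axis) for the 7502 tested probe sets, each a point. The 524 probe sets higher and the 529 lower past an adjusted p of 0.05 lie over most of the signal range, and include Alpl at 4.58 and Tnnc1 at -6.07.

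Osteoblast genes with the largest increases were alkaline phosphatase and the parathyroid hormone receptor. Genes were named by a fixed rule given in the methods, and further members of a list that are given by name were chosen after their values were seen. Of 12 osteoblast genes with a probe set, 10 were tested, 5 rose and 1 fell, with a median log2 fold change of 1.17 against 0.001 over all genes. Among the 5, Pth1r and Ibsp averaged under 24.8 units in GP cultures of both days and in day 0 medium. Alpl averaged 24.97 units in GP cultures at day 3, 20.2 at day 1 and 22.53 in day 0 medium, together also under 24.8. Pth1r, Ibsp and Alpl thus passed the signal filter only through treated arrays. They could enter only as increases, which raises the count and the median. Alpl, the phosphatase that frees phosphate for mineral, had 363, 557 and 971 units in the treated cultures of preparations 1 to 3, against 33.4, 20.6 and 20.9 in GP cultures. Every treated array lay far above every GP array, and the log2 fold change was 4.58 ± 0.50 (SE, n = 3 arrays per group, as for all such values here; adjusted p = 0.000112). Pth1r, the receptor for parathyroid hormone, had 57.4, 131 and 419 units in treated and 6.0, 8.6 and 4.7 in GP cultures (4.56 ± 0.83, adjusted p = 0.00305). The GP values lay under the signal filter, so the size of this change is uncertain: with values under 78.9 units raised to 78.9, it was 1.05 and did not pass (adjusted p = 0.187). Tnfrsf11b, which encodes osteoprotegerin, a decoy receptor that restrains osteoclast formation, had 236, 533 and 500.0 units in treated and 73.4, 115 and 117 in GP cultures (2.00 ± 0.22, adjusted p = 0.000112).

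Matrix genes of the osteoblast gave a mixed picture. Ibsp, bone sialoprotein, had 66.5, 24.4 and 169 units in treated and 6.6, 14.3 and 0.5 in GP cultures (3.34 ± 0.93, adjusted p = 0.0291). The groups did not overlap, but this call was lost without the block (adjusted p = 0.0665) and without the treated array of preparation 1 or 3 (0.0738 and 0.196) or the GP array of preparation 1 or 3 (0.106 and 0.0901), and another Ibsp probe set gave 1.13 and did not pass. The log2 fold change was 2.12 without the treated array of preparation 3. The GP values lay under the signal filter, and with a floor of 78.9 units the change was 0.37 (adjusted p = 0.382). Omd, osteomodulin, a small proteoglycan of mineralised matrix, had 87.2, 159 and 243.5 units in treated and 8.1, 30.3 and 89.6 in GP cultures. It was higher within every preparation (2.42 ± 0.45, adjusted p = 0.00357), yet the GP array of preparation 3 overlapped the treated range, and it did not pass without the block (adjusted p = 0.206). Col1a1 and Col1a2, the chains of bone collagen, had log2 fold changes of 0.28 and 0.24 and did not pass (adjusted p = 0.199 and 0.143), and another Col1a1 probe set gave -0.08. Cdh11, a cadherin of osteoblasts, fell to 179, 164 and 137 units in treated cultures, against 439, 380.0 and 315 in GP cultures (-1.24 ± 0.16, adjusted p = 0.000402). Runx2, Sp7, Bglap and Spp1 had no probe set with a single gene name, and Phex, Tnfsf11 and Dmp1 lay under the signal filter. Without the block 3 of the 5 increases passed, and without the GP array of preparation 3 the count was 5. With a floor of 78.9 units 2 passed, Alpl and Tnfrsf11b. Among 10 genes of phosphate and mineral handling, which include Alpl and Pth1r, Slc20a1, a sodium-phosphate cotransporter, rose by 1.28 ± 0.28 (adjusted p = 0.00796, and 0.0599 without the block). Ank, a membrane protein that exports pyrophosphate, had 328, 389.8 and 391 units in treated and 414, 625 and 514.5 in GP cultures (-0.47 ± 0.13, adjusted p = 0.0239), with its call lost without the treated array of preparation 2 or the GP array of preparation 1, 2 or 3 (adjusted p = 0.0504 to 0.102).

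**Figure D2:**
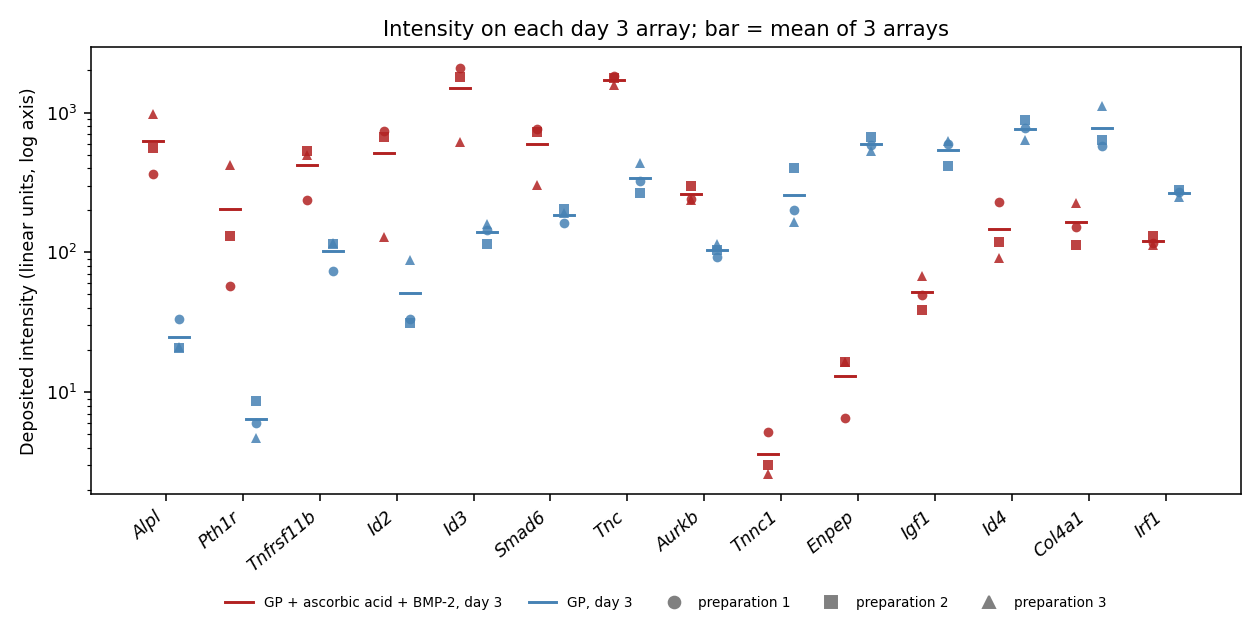
Deposited intensity on a log axis for 14 genes on each of the 6 day 3 arrays, treated to the left of GP, with a symbol for each preparation and a bar for the group mean. The genes were picked for display, and several were named by a rule that asked for groups without overlap. Treated and GP values do not overlap for any of them, which held for 1203 of 5680 tested genes (21.2%). Alpl lies at 363 to 971 units in treated against 20.6 to 33.4 in GP cultures. Tnnc1 lies at 2.6 to 5.2 in treated against 164 to 400 in GP cultures.

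Of 22 tested targets and feedback genes of BMP and TGF-beta signalling 9 rose (40.9%, against 7.50% of all genes). Only 1 fell (4.55%, against 7.68%), and the median was 0.64. The other 12 did not pass, 7 of them above 0 and 5 below, from -1.30 for Grem1 to 1.27 for Id1. The Id genes encode helix-loop-helix proteins that lack a DNA-binding region and block other such factors. Id3 had 2093, 1795 and 612 units in treated and 145, 114.5 and 159 in GP cultures, and Id2 had 741, 665 and 129.5 in treated and 33.6, 31.2 and 87.7 in GP cultures. Their log2 fold changes were 3.26 ± 0.30 and 3.15 ± 0.61 (adjusted p = 4.09e-05 and 0.00436). Id1 had 204.5, 129 and 31.9 units in treated and 45.9, 25.7 and 50.9 in GP cultures, so that the treated array of preparation 3 lay inside the GP range, and it did not pass (1.27 ± 0.42, adjusted p = 0.0634). Id4 went the other way, with 228, 118 and 91.5 units in treated and 777, 882 and 636 in GP cultures (-2.49 ± 0.21, adjusted p = 2.69e-05), and was the sole gene of the list that fell.

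Among feedback inhibitors, Smad6, which blocks BMP receptor signalling, had 763, 730.2 and 305 units in treated and 162, 203 and 192 in GP cultures (1.58 ± 0.29, adjusted p = 0.00312). Smad7, which inhibits both BMP and TGF-beta receptors, had 134, 115 and 75.9 in treated and 126, 109 and 88.0 in GP cultures, with overlapping groups and a log2 fold change of -0.02 ± 0.21. Its day 1 change had been 1.11 ± 0.21 (adjusted p = 0.00847). Nog, a secreted BMP antagonist, differed by 0.01 ± 0.31 at day 3 and did not pass. The homeobox genes Dlx2, Dlx1, Msx2 and Dlx5 rose by 1.40 ± 0.19, 1.15 ± 0.22, 1.06 ± 0.24 and 0.84 ± 0.20 (adjusted p = 0.000522, 0.00407, 0.0106 and 0.0138). Msx1, another homeobox gene, had 0.44 and did not pass (adjusted p = 0.204), and Dlx3 and Dlx6 lay under the filter. Hey1, a repressor shared with the Notch pathway, rose by 2.14 ± 0.57 (adjusted p = 0.024), with its call lost without the treated array of preparation 1, 2 or 3 or the GP array of preparation 3 (adjusted p = 0.0582 to 0.0811). Its log2 fold change was 1.21 without the GP array of preparation 3. Dlx5 had 545, 491 and 371 units in treated and 266, 239 and 274 in GP cultures, with no overlap, although its call was lost without the treated array of preparation 1 or 2 or the GP array of preparation 2 (adjusted p = 0.0536 to 0.0733). Without the block 4 of the 9 increases passed (Id3, Id2, Smad6 and Dlx2), and without the GP array of preparation 3 the count was 9. With 1 preparation left out in all 5 groups it ran from 2 to 10, and with a floor of 78.9 units it was 5.

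Treated values of the rising BMP targets were lowest in preparation 3. In each of the 9 genes the treated array of preparation 3 was the lowest of the 3, whereas over the 524 called higher probe sets this held for 170 (32.4%). Paired differences for Id2 were 4.46, 4.41 and 0.56 on the log2 scale in preparations 1, 2 and 3, and for Id3 3.85, 3.97 and 1.95. The paired difference was smallest in preparation 3 for 6 of the 9 and largest there for 2, among them Hey1 at 0.96, 1.89 and 3.56. Over the 524 called higher probe sets it was smallest there for 237 and largest there for 161. Of the osteoblast genes, 4 of the 5 that rose had their highest treated value in preparation 3 (267 of 524 called higher probe sets, 51.0%). The paired differences of Alpl were 3.44, 4.76 and 5.54, and those of Pth1r 3.26, 3.93 and 6.48, while Omd had its smallest difference in preparation 3, at 3.43, 2.40 and 1.44. With 3 preparations this is a description of these cultures and no test was made of it.

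**Figure D3:**
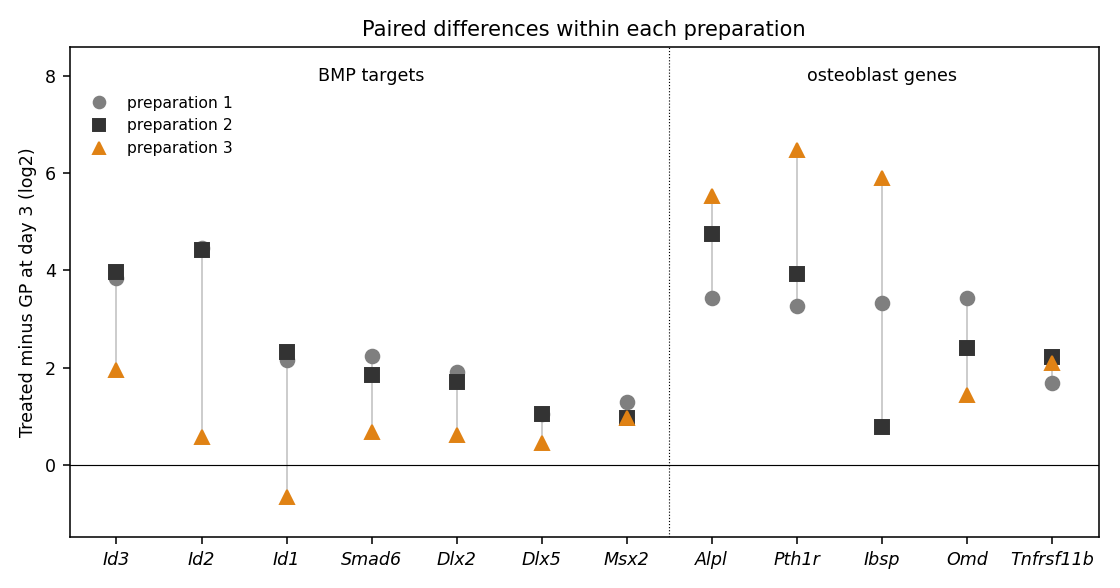
Difference of treated minus GP at day 3 on the log2 scale within each preparation, for 7 targets of BMP signalling (left) and 5 osteoblast genes (right), with a symbol for each preparation. Preparation 3 had the lowest difference for Id3, Id2, Id1 and Smad6 and the highest for Alpl, Pth1r and Ibsp.

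Among ligands and receptors of the same family, 2 of 20 tested genes rose, where 7.50% of all genes did, and 0 fell, with a median of -0.05. Tgfb1, the growth factor transforming growth factor beta 1, had 412, 514 and 435 units in treated and 93.2, 72.9 and 100.1 in GP cultures (2.36 ± 0.32, adjusted p = 0.000576). Smad1, the transcription factor that BMP receptors activate, had 324, 342 and 648 in treated and 163, 148.5 and 302 in GP cultures (1.10 ± 0.15, adjusted p = 0.000484). In both groups the value was highest in preparation 3. Without the block Smad1 did not pass (adjusted p = 0.111). The type I receptor Bmpr1a and the type II receptor Bmpr2 had log2 fold changes of -0.67 and -0.32 and did not pass (adjusted p = 0.154 and 0.51).

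Other signalling families held single genes with large changes. In the Wnt pathway, 2 of 20 tested genes rose and 4 fell. Wnt4, a secreted ligand, had 117, 210.3 and 50.8 units in treated and 7.4, 5.2 and 4.9 in GP cultures (4.23 ± 0.61, adjusted p = 0.000724), and had risen by 3.72 ± 0.61 at day 1. Its GP and day 0 values lay under the filter, so it was tested only through its treated arrays and could enter only as an increase. With a floor of 78.9 units the change was 0.66 and did not pass (adjusted p = 0.209). The receptors Lrp6 and Fzd2 fell, with log2 fold changes of -0.74 ± 0.12 and -0.64 ± 0.12 (adjusted p = 0.00147 and 0.0032), though Lrp6 did not pass without the block (adjusted p = 0.469), its groups overlapped, and a dimmer probe set under the filter gave 0.17. In the Notch pathway 2 of 11 rose (18.2%, against 7.50% of all genes) and 2 fell (18.2%, against 7.68%). Rbpj, the DNA-binding partner of activated Notch, had 148, 121 and 140.4 in treated and 354, 250.3 and 315 in GP cultures (-1.16 ± 0.16, adjusted p = 0.000626).

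Genes of the insulin-like growth factor (IGF) axis fell, with 6 of 11 tested lower (54.5%, against 7.68% of all genes), 0 higher and a median of -0.50. Igf1, the ligand, had 49.3, 38.7 and 68.1 units in treated and 592, 413 and 622.5 in GP cultures (-3.40 ± 0.31, adjusted p = 3.93e-05), with no overlap, while another Igf1 probe set gave -0.67 and did not pass. Htra1, a secreted protease, had 207, 263 and 411 in treated and 844, 1111 and 1081 in GP cultures (-1.83 ± 0.21, adjusted p = 0.000158). The binding proteins Igfbp4 and Igfbp6 fell, with log2 fold changes of -1.08 ± 0.30 and -0.95 ± 0.15, as did the receptor Igf1r at -0.66 ± 0.13 and the scavenging receptor Igf2r at -0.50 ± 0.10 (adjusted p = 0.0298, 0.00147, 0.00572 and 0.00476). Igf1, Htra1 and Igf1r also passed without the block. Without the GP array of preparation 3 the count was 5. The call for Igfbp4 was lost without the treated array of preparation 2 or 3 or the GP array of preparation 2 or 3 (adjusted p = 0.0508 to 0.134), its log2 fold change was -0.72 without the GP array of preparation 3, and another probe set gave -0.44 and did not pass. In the PDGF, FGF, EGF and VEGF group 2 of 18 rose (11.1%, against 7.50% of all genes) and 6 fell (33.3%, against 7.68%). Pdgfa, a growth factor for mesenchymal cells, had 752, 1324 and 1868 units in treated and 394, 558 and 613 in GP cultures (1.26 ± 0.23, adjusted p = 0.00269). Its receptor Pdgfra moved the other way, with 543, 283 and 373 in treated and 967, 762 and 825 in GP cultures (-1.14 ± 0.24, adjusted p = 0.00799, and 0.0529 without the block), while a dimmer probe set gave -0.47 and did not pass.

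Genes of mitosis formed the group with the highest share of increases. Of 42 tested mitosis and spindle genes, 34 rose (81.0%, against 7.50% of all genes) and 0 fell, with a median of 0.83 and increases of 0.60 to 2.45. Aurkb, a kinase of the chromosomal passenger complex, had 241, 299 and 238 units in treated and 91.9, 104 and 115 in GP cultures (1.32 ± 0.15, adjusted p = 0.000126). Plk1, a kinase that drives entry into and passage through mitosis, had 384.5, 433 and 392 in treated and 184.5, 132.5 and 185 in GP cultures (1.28 ± 0.16, adjusted p = 0.000379). Cdk1, the kinase partner of the mitotic cyclins, had 962, 884 and 918 in treated and 435, 340.2 and 445 in GP cultures (1.19 ± 0.18, adjusted p = 0.00121). In all 3 genes the treated arrays were close to each other and well above every GP array. The motor genes Kifc1, Kif2c, Kif11 and Kif20a rose by 2.45 ± 0.32, 1.44 ± 0.19, 1.24 ± 0.17 and 1.04 ± 0.13. The checkpoint genes Ttk, Bub1 and Mad2l1 rose by 1.74 ± 0.24, 1.32 ± 0.27 and 0.95 ± 0.14, and Cdc20, the activator of the anaphase-promoting complex, by 1.01 ± 0.14. The proliferation marker Mki67 rose by 0.68 ± 0.17 (adjusted p = 0.0178), but its call was lost without the treated array of preparation 2 or 3 or the GP array of preparation 2 (adjusted p = 0.0727 to 0.0937), and another probe set gave -0.13 and did not pass. The 8 members that did not pass ranged from -0.12 for Pttg1 to 0.59 for Nusap1. The Kifc1 and Kif20a probe sets carry a suffix for shared sequence. The medians of the paired differences of the 34 genes were 0.88, 0.99 and 0.99 in preparations 1, 2 and 3. Without the block 19 passed, and with 1 preparation left out in all groups 20 to 28 did. Without the GP array of preparation 3 the count was 34, and with a floor of 78.9 units it was 28. As these are bulk cultures, fewer or more cells of a kind and less or more RNA per cell cannot be told apart.

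Promoters of 3 of the rising mitosis genes are shown because most genes of that group share the same short motifs near the start site. The sequences are RefSeq promoters of build GRCm38.p6, from 250 bases before the start to 50 after it, written 5' to 3' along the gene's strand. Capitals mark the cell cycle genes homology region, TTTGAA, and the CCAAT box, on either strand. Plk1 lies on chr7:122159185-122159484, plus strand, Cdc20 on chr4:118437294-118437593, minus strand, and Ttk on chr9:83834439-83834738, plus strand.
Plk1: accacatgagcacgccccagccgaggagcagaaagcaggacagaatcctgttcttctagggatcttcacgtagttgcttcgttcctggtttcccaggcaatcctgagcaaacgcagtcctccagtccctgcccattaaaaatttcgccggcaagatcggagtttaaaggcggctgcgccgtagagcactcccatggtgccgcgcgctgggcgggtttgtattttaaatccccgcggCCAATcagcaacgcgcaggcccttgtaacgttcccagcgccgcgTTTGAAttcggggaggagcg
Cdc20: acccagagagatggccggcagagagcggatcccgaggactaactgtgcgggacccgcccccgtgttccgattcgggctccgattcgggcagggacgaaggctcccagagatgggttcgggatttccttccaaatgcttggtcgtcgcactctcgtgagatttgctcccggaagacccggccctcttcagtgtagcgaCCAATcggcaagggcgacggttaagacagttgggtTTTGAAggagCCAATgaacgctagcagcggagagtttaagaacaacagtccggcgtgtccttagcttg
Ttk: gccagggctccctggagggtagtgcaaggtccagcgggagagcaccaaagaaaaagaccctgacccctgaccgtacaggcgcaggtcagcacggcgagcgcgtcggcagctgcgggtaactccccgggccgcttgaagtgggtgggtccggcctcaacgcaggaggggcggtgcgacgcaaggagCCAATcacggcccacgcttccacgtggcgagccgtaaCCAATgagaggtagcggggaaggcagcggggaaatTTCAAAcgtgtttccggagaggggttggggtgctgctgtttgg

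Of the 34 rising mitosis genes, 28 had 30 promoter windows in the RefSeq table. Both motifs were found in 23 of the 30 windows (76.7%), against 2284 of 32851 windows of all genes (6.95%). All tested mitosis genes, risen or not, held both in 27 of 37 windows (73.0%). Those 37 windows include the 30, so the near-equal shares cannot show whether the motifs go with the rise, which was not tested. TTTGAA was in 25 of 30 (83.3%, 17.9% of all) and CCAAT in 25 of 30 (83.3%, 37.4% of all), and the letters of both overlapped in 1 of the 30 windows. Rising genes of DNA replication held CCAAT in 19 of 27 windows (70.4%) but TTTGAA in 5 (18.5%), close to the share over all genes. These matches describe the letters in the windows.

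DNA replication genes also rose, with 23 of 38 tested higher (60.5%, against 7.50% of all genes), 0 lower and a median of 0.70. Subunits of the Mcm helicase, which opens DNA at origins, were among them: Mcm2 had 344, 364 and 423 units in treated and 139.7, 186 and 235.5 in GP cultures (1.04 ± 0.17, adjusted p = 0.00178). Mcm4, Mcm3, Mcm5 and Mcm7 rose by 1.21 ± 0.23, 0.95 ± 0.23, 0.80 ± 0.20 and 0.67 ± 0.15. Cdt1, which loads that helicase, had 412, 458 and 446 in treated and 213, 245 and 213 in GP cultures (0.97 ± 0.17, adjusted p = 0.00219), and Rfc5, a subunit of the clamp loader, had 223.5, 230.1 and 278.5 in treated and 111, 115 and 115 in GP cultures (1.09 ± 0.19, adjusted p = 0.00226). For both genes every treated array lay above every GP array, whatever the preparation. A dimmer Rfc5 probe set under the filter gave -0.19. The clamp Pcna and the nucleotide-making enzymes Rrm2 and Tk1 rose by 0.68 ± 0.13, 0.81 ± 0.17 and 0.95 ± 0.24. The calls of Mcm3, Mcm5 and Tk1 were each lost in 2 to 4 of the 6 fits that left out 1 day 3 array, Mcm3 without the treated array of preparation 3 or the GP array of preparation 2 (adjusted p = 0.054 to 0.0543), Mcm5 without the treated array of preparation 2 or 3 or the GP array of preparation 1 or 2 (adjusted p = 0.0529 to 0.0961) and Tk1 without the treated array of preparation 1 or 3 or the GP array of preparation 1 or 2 (adjusted p = 0.0564 to 0.0957). A second Mcm3 probe set also rose (1.00, adjusted p = 0.00581). Without the block 11 of the 23 passed, and with 1 preparation left out in all groups 5 to 11 did. Without the GP array of preparation 3 the count was 19, and with a floor of 78.9 units it was 13.

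Of 32 tested ribosome biogenesis genes 13 rose (40.6%, against 7.50% of all genes), 0 fell and 19 did not pass, with a median of 0.48. Nhp2, part of the particles that modify ribosomal RNA, had 711.5, 922 and 977 in treated and 335, 431 and 509 in GP cultures (1.04 ± 0.15, adjusted p = 0.000665). Fbl, the methyltransferase fibrillarin, rose by 0.61 ± 0.12, and Ncl, nucleolin, by 0.49 ± 0.11, the last without a call when the GP array of preparation 2 (adjusted p = 0.0633) was left out. Srm, spermidine synthase, was counted with them, as a target of Myc, and rose by 1.18 ± 0.18, on a probe set with a suffix for shared sequence. Myc itself had 161, 183.5 and 317 units in treated and 98.4, 95.2 and 141 in GP cultures (0.94 ± 0.15, adjusted p = 0.00147), with no overlap, but did not pass without the block (adjusted p = 0.078). None of 17 cytosolic ribosomal protein genes passed in either direction in limma (0 at an unadjusted p under 0.05), and their log2 fold changes ran from -0.38 for Rpl22 to 0.18 for Rpl13a. Without the block 5 of the 13 increases passed, and with 1 preparation left out in all groups 3 to 12 did. The count was 13 without the GP array of preparation 3. Among 25 genes of G1 control, 5 rose (20.0%, against 7.50% of all genes) and 1 fell (4.0%, against 7.68%). Gadd45g, a growth arrest gene, had 315, 446 and 401 in treated and 48.4, 71.0 and 194 in GP cultures (2.13 ± 0.29, adjusted p = 0.000508), and the cyclin-dependent kinase inhibitor Cdkn2d rose by 0.72 ± 0.16 (adjusted p = 0.00814). The inhibitors Cdkn1a and Cdkn1b had 0.37 and 0.69 and did not pass (adjusted p = 0.135 and 0.51).

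Genes that respond to low oxygen were lower in treated cultures. Of 17 tested hypoxia genes outside glycolysis 9 fell (52.9%, against 7.68% of all genes) and 0 rose, with a median of -0.98. Of 15 glycolysis genes 5 fell (33.3%) and 0 rose, with a median of -0.34. P4ha1, the catalytic subunit of collagen prolyl 4-hydroxylase, had 275, 187 and 311 units in treated and 643, 613.5 and 678 in GP cultures (-1.36 ± 0.20, adjusted p = 0.000827). Pdk1, the kinase that keeps pyruvate out of the mitochondrial cycle, had 81.6, 55.6 and 88.8 in treated and 347, 168 and 224 in GP cultures (-1.67 ± 0.21, adjusted p = 0.000282). Kdm3a, a histone demethylase, had 133, 139 and 132 in treated and 325, 247 and 247 in GP cultures (-1.01 ± 0.12, adjusted p = 0.000267). No treated value of these 3 genes reached the GP range. Bnip3, which promotes the removal of mitochondria, fell (-1.74 ± 0.29), as did Egln1, the oxygen-sensing hydroxylase that marks hypoxia-inducible factor (-1.04 ± 0.19). Slc2a1, a glucose carrier, fell too (-1.25 ± 0.30), with its call lost without the treated array of preparation 1 or the GP array of preparation 1 or 2 (adjusted p = 0.0544 to 0.085). Hif1a, which encodes that factor, had a log2 fold change of 0.03, and Vegfa, a growth factor for vessels, had -1.19 and did not pass (adjusted p = 0.131).

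In glycolysis, Aldoa, the aldolase, had 1765, 1668 and 1407 units in treated and 3774, 2891 and 2826 in GP cultures (-0.97 ± 0.09, adjusted p = 4.09e-05), on a probe set with a suffix for shared sequence. Pgk1, phosphoglycerate kinase, had 776, 823 and 821 in treated and 1972, 1412 and 1152 in GP cultures (-0.87 ± 0.15, adjusted p = 0.00218). Across the 3 preparations the treated values of Pgk1 were close to each other, while its GP values spread more. Pfkl, phosphofructokinase, and Eno3, an enolase, fell as well (-1.07 ± 0.21 and -0.92 ± 0.20), while Ldha, lactate dehydrogenase, had -0.34 and did not pass (adjusted p = 0.0865). Without the block 6 of the 9 hypoxia genes and 2 of the 5 glycolysis genes passed. Without the GP array of preparation 3 the counts were 8 and 5, and with 1 preparation left out in all groups they ran from 4 to 8 and from 2 to 5. Summed over the 17 hypoxia genes, treated cultures had 4792 to 4830 units at day 3 and GP cultures 5928 to 7130. Genes of the pyruvate dehydrogenase complex and the citric acid cycle moved less, with 3 of 25 higher (12.0%) and 2 lower (8.0%), Pdk1 being counted here too. Over all genes 7.50% were higher and 7.68% lower. Ogdh and Dlst, subunits of the oxoglutarate dehydrogenase complex, rose by 0.60 ± 0.12 and 0.58 ± 0.12. Of 38 oxidative phosphorylation genes 3 rose (7.89%) and 1 fell (2.63%), with a median of 0.08, so their share of increases was near that of all genes.

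Promoters of P4ha1, on chr10:59323046-59323345, plus strand, and of Pgk1, on chrX:106186850-106187149, plus strand, are shown with ACGTG, the core of the hypoxia response element, in capitals on either strand, since both genes fell and hold it.
P4ha1: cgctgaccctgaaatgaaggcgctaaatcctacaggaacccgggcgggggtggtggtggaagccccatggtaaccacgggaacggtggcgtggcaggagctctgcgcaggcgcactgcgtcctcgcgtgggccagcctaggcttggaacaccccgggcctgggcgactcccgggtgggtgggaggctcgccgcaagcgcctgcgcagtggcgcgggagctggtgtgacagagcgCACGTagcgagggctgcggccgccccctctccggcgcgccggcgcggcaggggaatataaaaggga
Pgk1: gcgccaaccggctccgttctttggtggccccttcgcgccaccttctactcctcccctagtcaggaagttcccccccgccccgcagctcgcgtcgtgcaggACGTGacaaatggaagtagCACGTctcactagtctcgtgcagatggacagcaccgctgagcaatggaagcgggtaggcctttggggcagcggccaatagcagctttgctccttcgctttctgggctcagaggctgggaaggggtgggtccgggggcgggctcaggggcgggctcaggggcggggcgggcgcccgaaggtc

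Of the 9 hypoxia genes that fell, 8 had 11 windows, and ACGTG was in 6 of them (54.5%). It was in 3 of 7 windows (42.9%) of the 5 glycolysis genes that fell, and in 6447 of 32851 windows of all genes (19.6%). The share over all tested genes of these lists was not counted, so it may belong to the lists. Whether the motif goes with the fall was not tested.

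Transcripts of matrix proteins moved in both directions. Among 18 tested collagen chains 6 rose (33.3%, against 7.50% of all genes) and 3 fell (16.7%, against 7.68%). Col3a1, a fibril-forming chain, had 4109, 6222 and 4336 units in treated and 1640.2, 1751 and 2770.4 in GP cultures (1.27 ± 0.17, adjusted p = 0.000508). Col5a2, which joins such fibrils, and Col6a1 and Col6a2, which form beaded filaments, rose by 0.46 ± 0.13, 0.37 ± 0.10 and 0.81 ± 0.19. The call of Col5a2 was lost without the treated array of preparation 1 or 2 or the GP array of preparation 1 or 2 (adjusted p = 0.107 to 0.149), that of Col6a1 without the treated array of preparation 1 or 2 or the GP array of preparation 1 or 2 (adjusted p = 0.0583 to 0.0982) and that of Col6a2 without the treated array of preparation 1 or the GP array of preparation 1 or 2 (adjusted p = 0.0519 to 0.0815). A second Col6a1 probe set also rose (0.85, adjusted p = 0.00665). Of the 6 increases only Col3a1 passed without the block, and without the GP array of preparation 3 the count was 6. Basement membrane genes fell, with 6 of 14 lower (42.9%, against 7.68% of all genes) and 2 higher (14.3%, against 7.50%). Col4a1, a chain of the basement membrane network, had 152.5, 113 and 225 in treated and 572, 640.5 and 1107.5 in GP cultures (-2.24 ± 0.18, adjusted p = 1.68e-05), and its partner Col4a2 had 289, 348 and 267 in treated and 523, 764 and 1051 in GP cultures (-1.32 ± 0.19, adjusted p = 0.000682). Nid2 and Nid1, the nidogens that link laminin to that network, fell (-2.29 ± 0.20 and -1.19 ± 0.28), Nid1 without a call when the treated array of preparation 3 or the GP array of preparation 2 (adjusted p = 0.0513 to 0.062) was left out. The laminin chain Lamc1 fell (-0.48 ± 0.11), while the chain Lamb2 and the collagen Col15a1 rose (0.67 ± 0.17 and 1.38 ± 0.30). Both increases were lost without the block (adjusted p = 0.119 and 0.344) and that of Lamb2 also without the treated array of preparation 1 or the GP array of preparation 1 or 2 (adjusted p = 0.0668 to 0.0933), while 4 of the 6 decreases passed without the block. The decreases numbered 5 without the GP array of preparation 3.

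Matrix glycoproteins and proteoglycans moved in both directions, with 7 of 33 higher (21.2%, against 7.50% of all genes) and 6 lower (18.2%, against 7.68%). Tnc, tenascin C, a glycoprotein of developing and healing tissue, had 1814, 1771.5 and 1562 units in treated and 323, 267 and 437 in GP cultures (2.35 ± 0.30, adjusted p = 0.000402). Fbln2, a fibulin of elastic and basement membrane matrix, had 764.5, 615 and 727 in treated and 2327, 1849 and 2309 in GP cultures (-1.62 ± 0.12, adjusted p = 1.22e-05). Both genes had small spreads within each group. Ccn2, a matricellular factor induced by TGF-beta, had 219, 331 and 190.1 in treated and 12.7, 28.3 and 61.6 in GP cultures (3.09 ± 0.61, adjusted p = 0.00501), and with a floor of 78.9 units its change was 1.60 and did not pass (adjusted p = 0.129). Several proteoglycans depended on the preparation. Fmod, fibromodulin, a regulator of fibril assembly, had 2008, 3619.9 and 4443 in treated and 56.8, 308 and 2499.8 in GP cultures (3.18 ± 0.69, adjusted p = 0.00833), and Lum, lumican, had 74.4, 608 and 2289.6 in treated and 32.7, 114 and 1388 in GP cultures (1.44 ± 0.42, adjusted p = 0.0348). In both the GP array of preparation 3 exceeded a treated array of another preparation, and neither passed without the block (adjusted p = 0.325 and 0.792). The call of Fmod was also lost without the GP array of preparation 1 (adjusted p = 0.051), and that of Lum without the treated array of preparation 2 or the GP array of preparation 1, 2 or 3 (adjusted p = 0.0745 to 0.124). Without the treated array of preparation 2 the log2 fold change of Lum was 0.71. In the list 7 genes passed as higher and 4 as lower without the GP array of preparation 3. Dcn, decorin, had 1359, 4020.3 and 5046 in treated and 174, 763 and 5916 in GP cultures, with opposite signs between preparations, and did not pass.

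Proteases, inhibitors and adhesion genes were mostly lower where they changed. Of 25 proteases and inhibitors 7 fell (28.0%, against 7.68% of all genes) and 1 rose (4.0%, against 7.50%). Enpep, a membrane aminopeptidase that cleaves angiotensin, had 6.5, 16.4 and 16.4 units in treated and 584, 672 and 530.1 in GP cultures (-5.62 ± 0.38, adjusted p = 8.89e-06). The treated values lay under the signal filter, so the size is uncertain. With a floor of 78.9 units it was -2.91 (adjusted p = 0.00577), and another, dimmer Enpep probe set gave -0.45 and did not pass. Serpinb9, an inhibitor of granzyme B, had 95.0, 118 and 114 in treated and 534, 676 and 377 in GP cultures (-2.24 ± 0.25, adjusted p = 0.000127). Among 20 integrin, cadherin and catenin genes 5 fell and 0 rose, and Itga3, an integrin that binds laminin, had 51.9, 47.5 and 34.0 in treated and 110.0, 104 and 97.8 in GP cultures (-1.24 ± 0.21, adjusted p = 0.00193), while another probe set gave -0.69 and did not pass. Vcam1, an adhesion molecule for leukocytes, fell (-1.22 ± 0.21) and did not pass without the block (adjusted p = 0.254).

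Immune genes formed the list with the highest share of decreases. Of 19 tested interferon response and MHC class I genes 13 fell (68.4%, against 7.68% of all genes) and 1 rose, with a median of -0.87. Irf1, a transcription factor induced by interferon, had 116, 130.0 and 112 units in treated and 270.0, 277 and 250.3 in GP cultures (-1.15 ± 0.12, adjusted p = 8.95e-05). H2-K1 and H2-D1, heavy chains of MHC class I, fell, with log2 fold changes of -1.16 ± 0.13 and -1.01 ± 0.15 (adjusted p = 0.000158 and 0.00104), on probe sets with a suffix for shared sequence, so that signal from related class I genes may enter. Tap2, a subunit of the peptide transporter, fell (-0.87 ± 0.16), as did the immunoproteasome subunits Psmb8 and Psmb10 (-1.45 ± 0.28 and -0.82 ± 0.16). B2m, the light chain of class I molecules, and Tap1, the partner of Tap2, had -0.16 and 0.17 and did not pass (adjusted p = 0.655 and 0.611). In the constitutive proteasome 2 of 28 genes rose (7.14%, near the 7.50% of all genes) and 0 fell. Ifi204, an interferon-inducible DNA sensor, was the sole member that rose, by 1.75 ± 0.46 (adjusted p = 0.023), with its call lost without the treated array of preparation 1 or 3 or the GP array of preparation 3 (adjusted p = 0.0528 to 0.0972). Without the block 5 of the 13 decreases passed, and with 1 preparation left out in all groups 3 to 8 did. Without the GP array of preparation 3 the count was 10, and with a floor of 78.9 units it was 7.

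Chemokines and cytokines fell too, with 11 of 25 lower (44.0%, against 7.68% of all genes), 1 higher and a median of -0.77. Cxcl12, the chemokine that holds haematopoietic cells in marrow, had 362, 130.5 and 82.9 units in treated and 1937, 869 and 313 in GP cultures (-2.36 ± 0.23, adjusted p = 4.41e-05). Its level in both groups was highest in preparation 1 and lowest in preparation 3. The groups therefore overlapped while the paired differences were -2.42, -2.73 and -1.92. Ackr3, an atypical receptor that clears Cxcl12, had 43.5, 26.2 and 24.8 in treated and 175, 130.5 and 175 in GP cultures (-2.38 ± 0.21, adjusted p = 3.28e-05). Cx3cl1, a membrane-bound chemokine, had 1014, 869 and 404 in treated and 2568, 2120.4 and 827 in GP cultures (-1.22 ± 0.14, adjusted p = 0.000206), and a dimmer probe set under the filter gave 0.30. Socs3, a feedback inhibitor of cytokine receptors, fell (-1.82 ± 0.52), with its call lost without the treated array of preparation 1 or 2 or the GP array of preparation 2 or 3 (adjusted p = 0.0594 to 0.151) and a log2 fold change of -1.20 without the GP array of preparation 3. The chemokines Ccl7 and Ccl9 fell (-1.61 ± 0.38 and -2.38 ± 0.41), the treated mean of Ccl9 lying under the filter and the call of Ccl7 being lost without the GP array of preparation 2 (adjusted p = 0.055). Ptgs2, the inducible cyclooxygenase, rose by 0.95 ± 0.23 (adjusted p = 0.0149), with its call lost without the treated array of preparation 2 or the GP array of preparation 1 (adjusted p = 0.0643 to 0.0872). Without the block 1 of the 11 decreases passed, Ackr3, and the others did not, Cxcl12 and Cx3cl1 included (adjusted p = 0.108 and 0.216). With 1 preparation left out in all groups 5 to 11 passed, without the GP array of preparation 3 the count was 8, and with a floor of 78.9 units it was 4.

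A pair of troponin genes had decreases among the largest of the comparison. Tnnc1, the calcium-binding troponin of slow muscle and heart, had 5.2, 3.0 and 2.6 units in treated and 201, 400.2 and 164 in GP cultures (-6.07 ± 0.50, adjusted p = 2.17e-05). Tnnt1, the slow muscle troponin that binds tropomyosin, had 7.9, 14.7 and 7.2 in treated and 180.3, 369 and 135 in GP cultures (-4.46 ± 0.34, adjusted p = 1.22e-05). All treated values of both lay under the signal filter, so the sizes are uncertain, and both passed with a floor of 78.9 units at -1.58 and -1.40. The probe set for Tnnt1 carries a suffix for shared sequence, and another gave -0.58 and did not pass. The other 10 tested striated muscle genes did not pass, with Myod1 and Myog, the regulators of muscle identity, at -0.52 and 0.10. Tnni3, a troponin gene under the filter, had 4.3, 5.0 and 1.9 units in treated and 28.3, 30.6 and 9.0 in GP cultures. A limma fit without the filter gave -2.34 for it (adjusted p = 0.0192). In that fit the troponin genes Tnni2, Tnnt2 and Tnnt3, also under the filter, gave 0.14, -0.41 and 1.39 and did not pass. Summed over the 12 tested genes, the muscle list had 814.5 to 1219 units in treated and 1072 to 1996 in GP cultures. Of 21 smooth muscle and actin genes 3 fell (14.3%, against 7.68% of all genes), among them Synpo, an actin-associated protein (-1.89 ± 0.22), and 0 rose.

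Among genes for handling retinoids 2 of 8 fell and 0 rose. Crabp2, which carries retinoic acid to the nucleus, had 82.1, 86.5 and 246 units in treated and 838, 993 and 856 in GP cultures (-2.89 ± 0.45, adjusted p = 0.00123). Of 31 genes of oxidative stress and detoxification 7 fell (22.6%, against 7.68% of all genes) and 1 rose (3.23%, against 7.50%). Cyp1b1, a cytochrome P450, had 297, 179.7 and 134 in treated and 489, 499 and 504 in GP cultures (-1.37 ± 0.20, adjusted p = 0.000846), and Aldh3a1, an aldehyde dehydrogenase, had 46.7, 48.6 and 57.9 in treated and 129, 191 and 193 in GP cultures (-1.73 ± 0.24, adjusted p = 0.000651). For Cyp1b1 the GP arrays nearly coincided, while the treated arrays spread. Nqo1, a quinone reductase, fell (-1.48 ± 0.27), although another probe set gave -0.71 and did not pass. Mt2, a metal-binding protein, fell as well (-2.07 ± 0.42) and did not pass without the block (adjusted p = 0.212). Hmox1 fell (-0.49), without a call when the GP array of preparation 1 was left out (adjusted p = 0.0539). The sole increase was Gsr (0.56), with its call lost in all 6 fits that left out 1 day 3 array. Of the 23 genes that did not pass, 10 lay above 0 and 13 below, with Gclm, Gclc and Txnrd1 at 0.49, 0.39 and 0.36. The cholesterol synthesis list had a median of 0.61, but 2 of its 16 genes passed (12.5%, where 7.50% of all genes rose). These were Fdps at 1.28 ± 0.24 and Mvd at 0.90 ± 0.25, the call of Mvd being lost without the treated array of preparation 1 or 3 or the GP array of preparation 1 or 2 (adjusted p = 0.0582 to 0.145).

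Lists for other cell types held few changes. None of 10 adipocyte, 6 chondrocyte, 6 macrophage and osteoclast or 8 neural and glial genes passed in limma (3, 0, 0 and 1 at an unadjusted p under 0.05). The summed signals overlapped between groups, with the adipocyte genes at 3576 to 4966 units in treated and 2909 to 6014 in GP cultures, and the macrophage and osteoclast genes at 444 to 809.5 in treated and 492 to 875 in GP cultures. Of 3 endothelial genes Mcam fell, and of 3 epithelial genes Elf3 rose. Both had a group mean under the filter, and neither passed with a floor of 78.9 units, without the treated array of preparation 3 or without the GP array of preparation 2. Among 8 heat shock and housekeeping genes listed for RNA quality, Hspa1b and Hsph1, which encode chaperones, fell (-1.06 ± 0.26 and -0.54 ± 0.12). Neither passed without the block, and Hspa1b did not without the treated array of preparation 1 or 3 or the GP array of preparation 1 or 2 (adjusted p = 0.0544 to 0.0823). The part of RNA quality in the results was not tested.

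**Figure D4:**
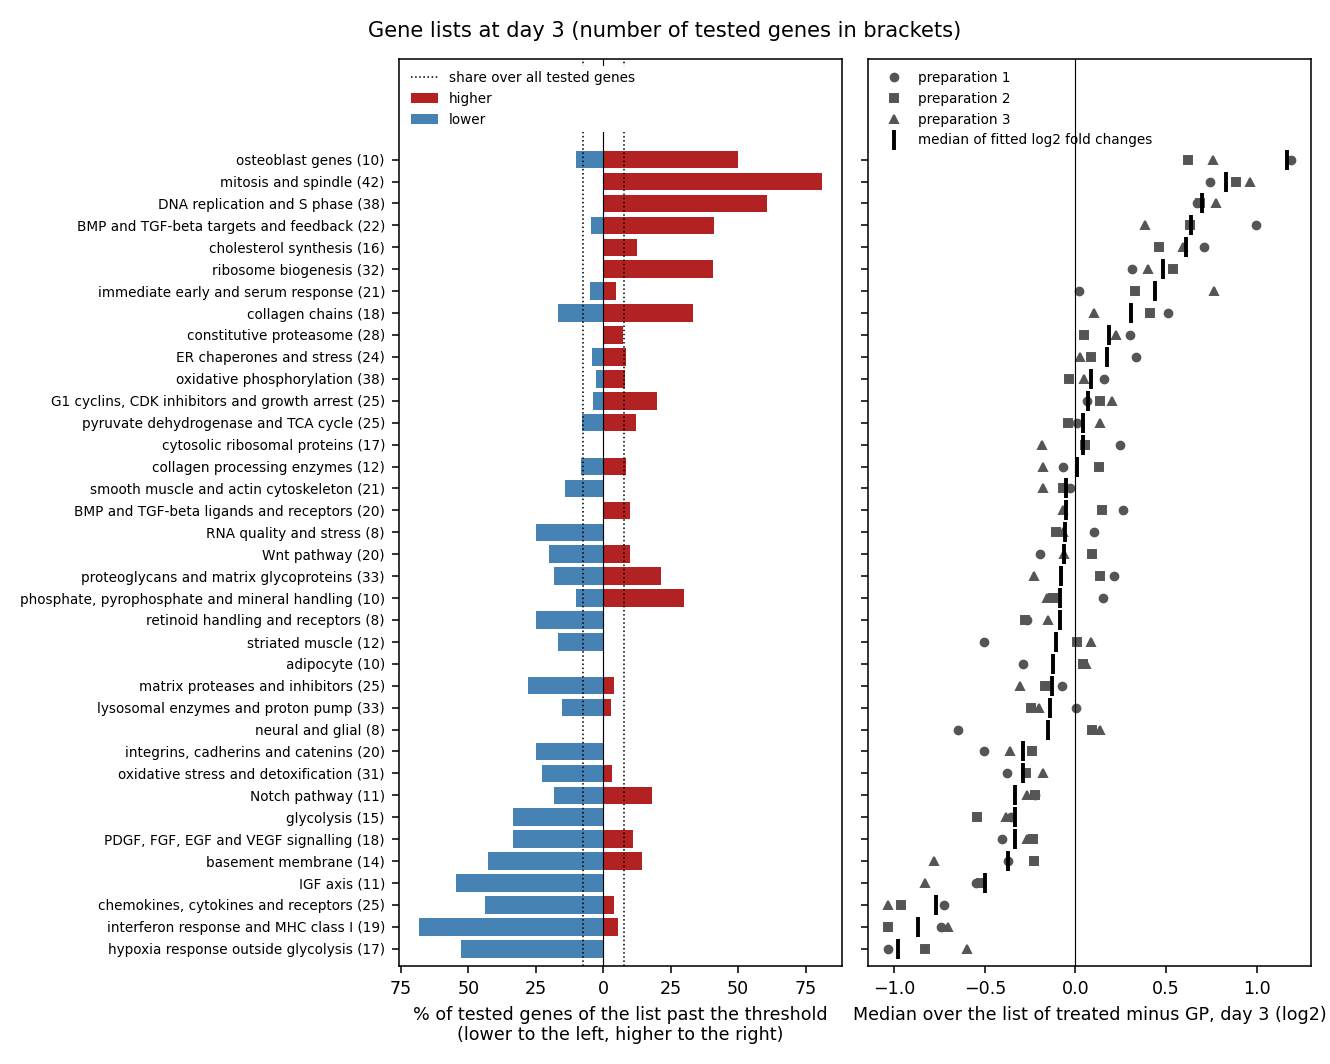
Left, percent of the tested genes of each list with at least 8 tested genes that passed as higher or lower at day 3, with dotted lines at the shares over all genes, 7.50% and 7.68%. Right, the median treated minus GP difference of each list in each preparation and from the fit, running from 1.17 for osteoblast genes to -0.98 for hypoxia genes.

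The same contrast at day 1 had fewer calls, 313 of 5680 genes (5.51%). The day 3 and day 1 effects share no arrays, but both came from the same fit, with the same preparations and the same estimate of spread for each probe set. The calls of the 2 days are therefore not independent. Both days called 216 genes, 215 of them in the same direction. The difference between the day 3 and day 1 effects passed for 0 of 7502 probe sets (0.00%) in limma, with 659 at an unadjusted p under 0.05. No gene is therefore shown to respond differently at the 2 times. The mitosis list had a median of 0.13 at day 1 with 0 of 42 genes called in limma (3 at an unadjusted p under 0.05), and 0.83 at day 3 with 34. Its summed signal at day 1 was 25568 to 30283 units in treated and 24276 to 27040.1 in GP cultures, and at day 3 it was 20252.5 to 23072 in treated and 13924 to 15103 in GP cultures. Day 0 medium had 14741 to 18027 units. Treated cultures at day 3 thus lay above both GP and day 0 cultures, and below both day 1 groups. The hypoxia list had medians of -0.70 at day 1 and -0.98 at day 3, with 7 of the 9 day 3 decreases also called at day 1. The BMP target list had medians of 1.02 and 0.64, with 7 of the 9 day 3 increases called at day 1. Of the 5 osteoblast increases 1, Alpl, was called at day 1, where it had 109 ± 73.7 units in treated and 20.2 ± 3.21 in GP cultures (SD, n = 3).

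**Figure D5:**
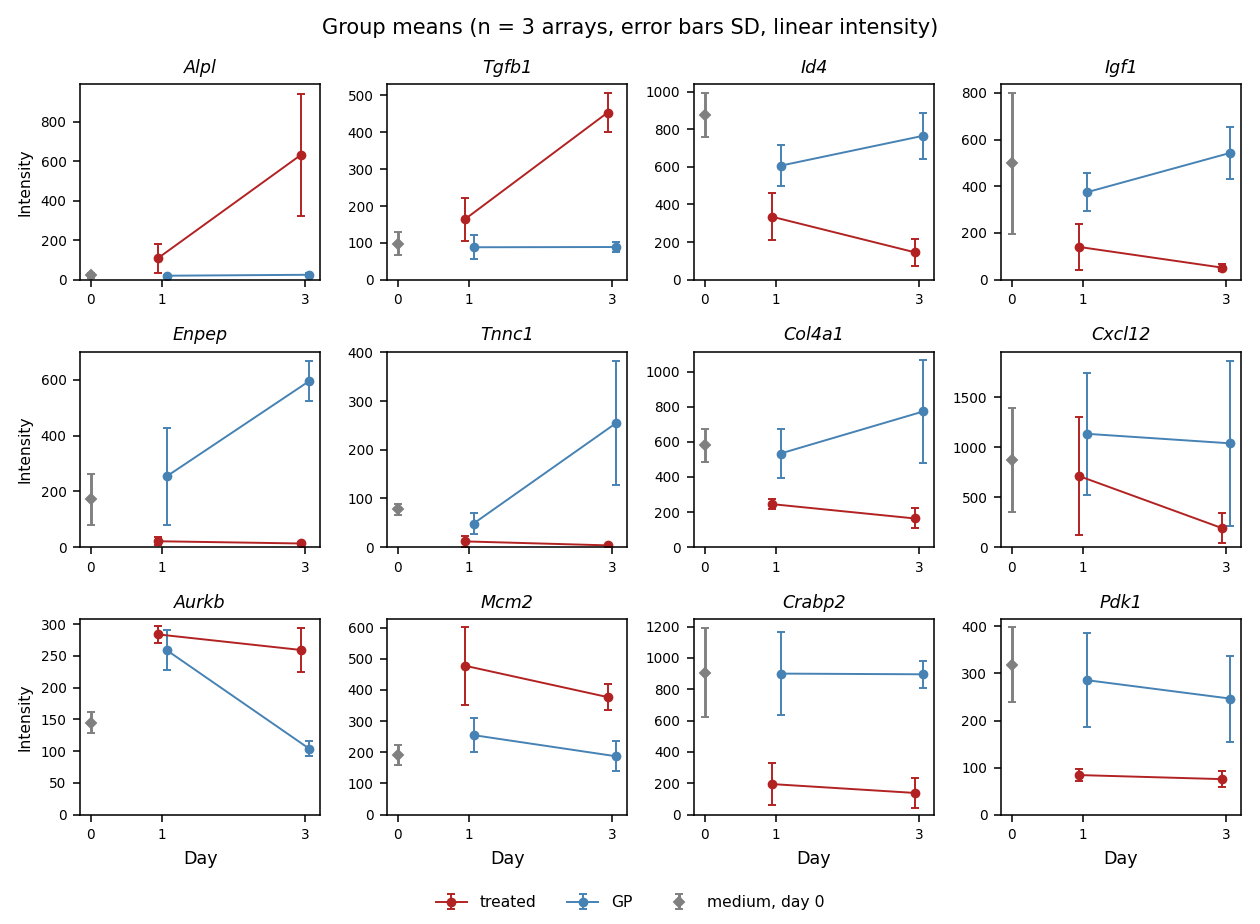
Group mean intensity (error bars SD, n = 3 arrays) at days 0, 1 and 3 for 12 genes, with treated, GP and day 0 medium cultures as separate symbols and the linear axis of each panel starting at 0. At day 3 Aurkb averaged 259 units in treated and 104 in GP cultures, and at day 1 Alpl averaged 109 in treated and 20.2 in GP cultures.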

How the data were processed

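The files hold 15 single-colour arrays with 12488 probe sets. The authors deposited a linear intensity for each probe set; each array's trimmed mean, over the 2nd to the 98th percentile, was 149.1 to 150.0, so the authors had scaled the arrays. Image analysis software is not given in the sources used here. The number of arrays limits the precision. A platform annotation gave 1 gene symbol to 10833 probe sets, several to 396 and none to 1193; genes were named from it, and RefSeq names of GRCm38.p6 were matched for 10817. Values under 2.8 (the 10th percentile) were raised to it, probe sets averaging under 24.8 (the 40th percentile) over 15 arrays were left out, and log2 values were fitted with limma 3.58.1 (lmFit and eBayes with a trend) in R 4.3.3, on the 5 groups with preparation number as a block, leaving 8 residual degrees of freedom. Arrays were paired by the preparation number in their titles, and same-numbered arrays deviated together: over 30 pairs of same-numbered arrays the correlation of their deviations from the group means was 0.185 to 0.702. P-values were Benjamini-Hochberg adjusted over all 7502 tested probe sets at 0.05; the brightest probe set stood for a gene. Probe sets with the suffix f or s share sequence with other transcripts; among genes named, these stand for Kifc1, Kif20a, Aldoa, Srm, H2-K1, H2-D1, Tnnt1, Nid2, Lamc1, Mcm3, Hif1a, Ifi204, Pttg1 and Txnip.

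The genes named were the 15 largest increases and decreases whose groups do not overlap, the 8 smallest p each way beyond these, a set of osteoblast and BMP genes and up to 4 called genes of each list. The members and lists were chosen with earlier results of these data known. On simulated data with changes in known probe sets, limma recovered 76.5% of 98 changes of 1 on the log2 scale and 97.1% of 102 changes of 2, with 15 false calls. The data were a single draw of independent normal noise from the fitted model with the block, without the floor. These rates therefore hold for data that follow that model and may differ for these arrays. Alternatives were the fit without the block, the 6 day 3 arrays alone, other floors, filters and normalizations, array weights, robust and untrended variances and leaving out each array or preparation.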

Additional observations from a re-analysis of the deposited data

Results flagged for a closer look

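In 4 named genes every pair of arrays moved one way at day 3 and every pair the opposite way at day 1. The difference between the day 3 and the day 1 effect was tested in the same limma fit and did not pass for any of them. For Kcnd1, a potassium channel subunit, the difference was 2.89 on the log2 scale, with 2.23 at day 3 and -0.66 at day 1 (adjusted p = 0.328). For Omd, osteomodulin, it was 3.01, with 2.42 at day 3 and -0.59 at day 1 (adjusted p = 0.114). For Dusp1, a phosphatase of mitogen-activated kinases, it was -0.97, with -0.63 at day 3 and 0.34 at day 1 (adjusted p = 0.21). For Ank, the pyrophosphate exporter, it was -0.78, with -0.47 at day 3 and 0.30 at day 1 (adjusted p = 0.151).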

How the results depend on the processing

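The 1053 called probe sets became 321 with no replicate block, 78 in the 6 day 3 arrays alone with no replicate block, 473 at an adjusted p of 0.01, and 261 to 961 when 1 array or 1 preparation was left out. The lowest counts came without preparation 2 (261) and preparation 1 (356), and without the GP array of preparation 2 (619) or 1 (630). All 269 genes called without the block were also called with it, and 80 of the 131 named called genes kept their call without it. The count for the difference between days, 0, became 5 with a floor of 78.9 units, 1 with quantile normalization, 15 with array weights and 0 to 20 when arrays or preparations were left out. Median scaling moved the median of all genes by 0.05 and gave 493 higher and 378 lower probe sets. Other floors, filters and variance settings gave 722 to 1060, quantile normalization 1079 and array weights 1031. Of the 131 named called genes 100 kept their call in all 6 fits that left out 1 day 3 array, and of 115 further called list members 47 did. Smad7 at day 3, -0.02, was 0.033 with median scaling and -0.12 to 0.12 when arrays or preparations were left out, being above 0 without the treated array of preparation 3 (0.12), the GP array of preparation 1 (0.02) or preparation 3 (0.08). Nog at day 3, 0.01, was -0.0673 with array weights and -0.42 to 0.33 when arrays or preparations were left out, with -0.0016 and -0.28 without the treated array of preparation 1 or 2, -0.24 and -0.06 without the GP array of preparation 2 or 3, and -0.42 without preparation 2. Neither gene was called in the main comparison. The causes of these changes were not tested. Signals under 24.8 units were not tested, and sizes of change for genes with a group under it depend on the floor. The lower day 3 group mean lay under 24.8 units in 47 of the 862 called genes. A gene that passed the filter only through its brighter group could be called in 1 direction alone.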

Other observations

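Further genes, chosen after their values were seen, differed between treated and GP cultures. Npnt, nephronectin, an integrin ligand of the matrix, had 2709, 4900.4 and 4231.5 units in treated and 146, 449.9 and 2961 in GP cultures (2.73 ± 0.59, adjusted p = 0.00781). As with Fmod and Lum, the GP array of preparation 3 was far above the other GP arrays, and Npnt did not pass without the block (adjusted p = 0.322). Txnip, a thioredoxin-binding protein that restrains glucose uptake, had 214, 119.7 and 125 in treated and 723, 658.5 and 612 in GP cultures (-2.17 ± 0.25, adjusted p = 0.000168), with no overlap and a call without the block as well (adjusted p = 0.00115). A dimmer Txnip probe set gave -0.26 and did not pass. Mt2 had 752, 733 and 628.5 units in treated and 4268, 3742 and 1616 in GP cultures. Its GP value in preparation 3 was the lowest of the 3 and still above every treated value.

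The treated value in preparation 3 was the lowest of the 3 for 9 of 9 BMP targets that rose and the highest for 4 of 5 osteoblast genes. Over the 524 called higher probe sets it was the lowest for 32.4% and the highest for 51.0%. The median paired differences of the 9 BMP targets were 1.75, 1.69 and 0.67 in preparations 1, 2 and 3, and those of the 5 osteoblast genes were 3.33, 2.40 and 5.54. For the 524 probe sets the medians were 0.77, 0.75 and 0.66, also lowest in preparation 3. On the preparation 3 arrays of all groups 11.69% to 13.89% of values lay at the floor, and on the other arrays 6.97% to 9.72%. The part of that difference in these values was not tested.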
